A study of Mus musculus with 33 samples.

Results

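The kidneys of 5 lupus-prone mice labelled week 9 were set against the kidneys of 5 mice labelled week 1, out of 33 kidneys in the series. The members were taken from the time point given for each array and from nothing measured. Both groups were NZB X NZW F1 (BWF1) females that had received ADV_IFNa, an adenoviral vector carrying interferon-alpha, so the vector is common to both. The level of the cytokine need not have been the same in the groups and is not analysed here. The vector was given intravenously at 8 or 9 weeks of age, which makes the week 9 mice 8 weeks older than the week 1 mice at collection. Age and time after the vector cannot be told apart in this comparison, and no group given an empty virus was analysed here. The other kidneys, 5 each at weeks 2, 3, 5 and 7 and 3 from untreated mice, entered the model and are used below to place the levels. The comparison asks how kidneys late after the vector differ from kidneys soon after it.

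Interferon-alpha acts through a receptor present on nearly every cell and switches on a set of antiviral genes through STAT and IRF factors. In BWF1 mice it speeds up a disease that otherwise comes with age, in which antibodies against nuclear antigens lodge in the glomeruli. Leukocytes then enter, tubules are damaged and lose their transport functions, and scar matrix is laid down.

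Each array measured total RNA of a kidney on an Affymetrix mouse plate array, and values are log2 signals after robust multi-array average (RMA) normalization. A gene is represented by its brightest probe set. Changes are week 9 minus week 1 on the log2 scale, so that 1 is a doubling, with their standard error (SE) and adjusted p from limma with Benjamini-Hochberg adjustment. A gene is said to rise or fall where the adjusted p was below 0.05, and to be called where the change also exceeded 2-fold. In whole kidney, more cells of a type and more RNA per cell cannot be told apart.

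The 10 arrays correlated between 0.974 and 0.993 with each other. Beta-actin probes near the 3′ and the 5′ end differ more in degraded RNA, and their ratio was 2.02 ± 0.0974 at week 9 and 1.95 ± 0.151 at week 1 (log2, SD, n = 5 each, exact two-sided permutation test, p = 0.516), and that of Gapdh was 1.54 and 1.55 (p = 0.913). Haemoglobin signal, the mean of the globin genes Hba-a1 and Hbb-b2, did differ. It was 10.11 ± 0.446 at week 9 and 7.08 ± 0.62 at week 1 (exact p = 0.00794, the smallest that 5 against 5 arrays allow). Week 1 was the low group of the series in this signal, since untreated kidneys averaged 9.19 and weeks 2, 3 and 5 averaged 9.67, 10.38 and 9.96, though week 7 averaged 7.61 ± 2.33 (SD, n = 5). The part of the haemoglobin signal in the results was not tested beyond a fit that holds it as a covariate. Among the 10 arrays, adrenal genes stood high only in week 1 replicates 4 and 1. Hsd3b1, a steroid synthesis enzyme, was between 2.76 and 3.27 in the week 9 arrays and at 10.18 and 7.76 in those 2 week 1 arrays, with the other 3 at or below 2.88. None of the 13 adrenal genes passed the test, and results that moved without both these arrays are given with and without them. Fat signal was uneven in both groups and high in the same arrays. The mean level of 11 fat cell genes against the week 1 mean was 0.35, 0.31, -0.46, -1.36 and -0.91 in week 9 replicates 1 to 5 and 1.16, -0.82, -0.23, 0.97 and -1.08 in week 1 replicates 1 to 5. Of these genes 1 fell and none rose, and the part of fat in the results was not tested. Genes that mark kidney cells were present in both groups. Of the markers set in advance, Slc12a3, of the distal tubule, fell, with a change of -0.88 that is given again below. Those named next did not pass the test. Umod, the thick limb protein uromodulin, averaged 11.19 ± 0.103 and 11.06 ± 0.0705, Kap, a proximal tubule androgen-regulated protein, 12.16 and 12.45, Slc12a1, the thick limb salt carrier, 10.57 and 10.62, and Nphs1, the slit diaphragm protein nephrin, 4.54 and 4.51 at week 9 and week 1.

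Of 45037 probe sets, 567 were called up (1.26%) and 184 called down (0.409%). At gene level, 323 of 17097 genes were called up (1.89%) and 119 down (0.696%), while at any fold 1129 rose (6.6%) and 1044 fell (6.11%). The median change over all genes was -0.03. These shares are the background for each gene group below. All 5 week 9 arrays lay above all 5 week 1 arrays in 244 of the 323 genes called up and below them in 91 of the 119 called down, a description only, since these genes were called for their difference. The shares over all genes were 4.19% and 5.14%. The 15 largest rises and 15 largest falls named below were also chosen for groups that did not overlap. For those genes the lack of overlap is therefore a description and no support.

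In the called genes the week 9 kidneys differed among themselves far more than the week 1 kidneys did, and over all genes only slightly more. The SD was larger among week 9 than among week 1 arrays in 412 of the 442 called genes (93.2%), against 59.2% of all genes. Its median over the called genes was 0.652 at week 9 and 0.23 at week 1, and over all genes 0.205 and 0.179. Week 9 replicate 1 lay above every week 1 array in all 323 genes called up, and replicate 2 in 256 of them. The model shares its variance across the 7 groups, so the SE of such genes does not carry the full spread of the week 9 kidneys, and the value of each array is given for the genes the results turn on.

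**Figure D1:**
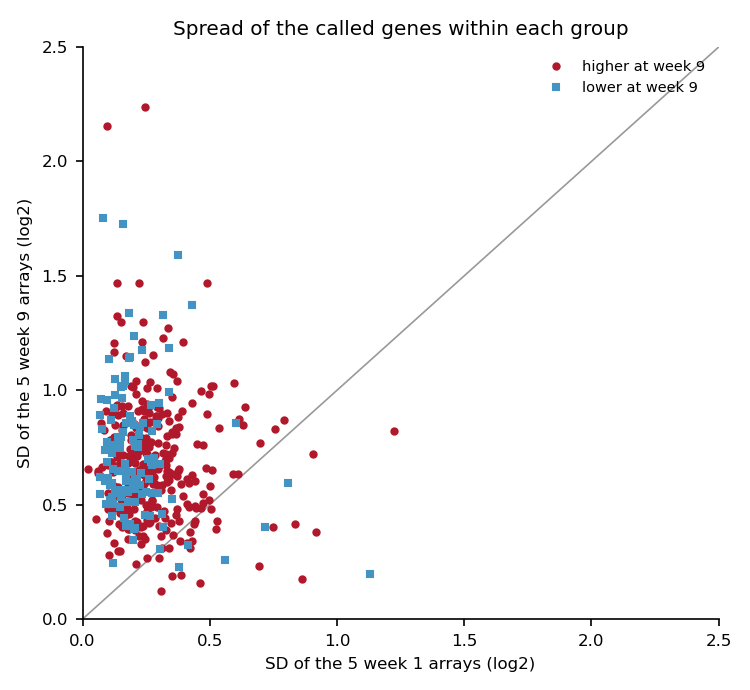
SD of the 5 week 9 arrays (vertical axis, log2) against the SD of the 5 week 1 arrays (horizontal axis, log2) for the 442 called genes, with genes higher at week 9 as red circles, genes lower at week 9 as blue squares and the line of equal SD in grey. Most points, 412 of 442, lie above the line.

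Antibody genes made the largest rises. Igkj1, a joining segment of the kappa light chain, stood at 9.95, 8.27, 7.78, 8.54 and 8.30 in week 9 replicates 1 to 5, against 3.71, 2.47, 1.71, 2.73 and 4.87 in week 1 replicates 1 to 5. Jchain, which links IgA and IgM into polymers and marks antibody-secreting cells, stood at 9.15, 7.96, 7.00, 7.53 and 7.37 at week 9 and at 3.33, 2.76, 3.18, 2.69 and 4.57 at week 1. In both genes every week 9 kidney lay far above every week 1 kidney, week 9 replicate 1 was highest and week 1 replicate 5 was the highest of its group. The changes were 5.47 ± 0.60 for Igkj1 and 4.49 ± 0.49 for Jchain (SE, limma, adjusted p = 7.79e-07 for each). Igk-V21, a kappa variable segment, was less even, at 5.92, 4.19, 3.11, 2.83 and 5.86 at week 9 against 1.77, 1.92, 1.77, 1.68 and 2.03 at week 1.

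Some transcription factors of antibody-secreting cells rose with them, and others did not. Irf4, which drives plasma cell formation, averaged 6.88 ± 0.67 at week 9 and 5.15 ± 0.30 at week 1 (SD, n = 5 each), and Pou2af1, a B lineage coactivator of immunoglobulin promoters, 4.27 ± 0.77 and 2.31 ± 0.30. Prdm1 and Xbp1, the factors that set the plasma cell program, changed by 0.19 and 0.29 and did not pass (adjusted p = 0.359 and 0.35). In all, 4 of 15 measured members of the plasma cell list rose, none fell and the median change was 0.09. The constant region genes Ighm and Igha did not pass. Ighm averaged 3.35 at week 9 and 3.00 at week 1, and Igha 2.07 and 2.00, all at the dim end of the array. Markers of B cells at large moved little, with 2 of 15 members rising (median change 0.23). The defining genes Cd79a, of the antigen receptor, and Ms4a1, which encodes CD20, changed by -0.01 and 0.23 (adjusted p = 0.978 and 0.418). No member rose without week 9 replicate 1 or without week 1 replicate 2, and 1 rose without week 9 replicate 5 or without week 1 replicate 3.

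Genes that attract and sustain B cells included a large single change. Cxcl13, the chemokine that gathers B cells into follicles, stood at 7.11, 5.60, 5.22, 6.63 and 5.96 at week 9, against 4.04, 3.99, 3.73, 4.06 and 4.03 at week 1. The groups were wide apart, by 2.13 ± 0.27 (SE, adjusted p = 7.09e-06), and the week 1 kidneys were nearly equal. Tnfrsf13b, which encodes the survival receptor TACI, changed by 1.05 ± 0.19 (adjusted p = 0.000561). With these, 3 of 13 members of the B cell help list rose and none fell (median change 0.36), and the count was 6 without week 9 replicate 3. With dim probe sets left out, 2 members of the plasma cell list and 1 of the B cell help list passed.

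T cell genes rose by small amounts. Cd3g, Cd3e and Thy1, of which the first pair encode parts of the T cell receptor complex, changed by 1.54 ± 0.28, 1.08 ± 0.25 and 1.15 ± 0.22. Cd3g was at 4.50, 3.81, 3.75, 4.44 and 4.21 at week 9 and at 2.83, 2.76, 2.47, 2.44 and 2.51 at week 1, with no overlap. Of the 30 measured members of the T and NK cell list 10 rose and none fell, with a median of 0.35. The count was 4 without week 9 replicate 1, 6 without week 9 replicate 5, 6 without week 1 replicate 4, 1 with dim probe sets left out and 4 with the haemoglobin signal as a covariate. The cytotoxic genes Gzma, Gzmb and Prf1 changed by -0.45, -0.33 and -0.30 and did not pass.

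Macrophage and monocyte genes rose in 21 of 31 members, with none falling and a median of 1.30. Ccr2, the receptor that draws monocytes out of blood, stood at 7.63, 5.67, 5.50, 6.82 and 6.58 at week 9, against 3.87, 3.97, 3.34, 3.77 and 3.70 at week 1, a change of 2.71 ± 0.34 (SE, adjusted p = 5.44e-06). Fpr2, a formyl peptide receptor of phagocytes, stood at 7.15, 6.43, 7.63, 5.78 and 7.11 against 3.82, 3.68, 3.70, 4.58 and 2.10. Every week 9 kidney exceeded every week 1 kidney in both genes, and week 1 replicate 5 was the lowest for Fpr2. Mrc1, the mannose receptor of tissue macrophages, changed by 2.21 ± 0.34, and Cd14, the coreceptor for lipopolysaccharide, by 2.36 ± 0.40. Siglec1, Cd163 and Csf1r, also macrophage genes, changed by -0.28, -0.02 and 0.15 and did not pass.

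The neutrophil list did not move. Of 17 members only Lcn2 rose, a gene that injured tubules also make, and the median change was -0.00274. S100a8 and S100a9, the calprotectin subunits abundant in neutrophils, averaged 2.55 ± 0.16 and 3.34 ± 0.58 at week 9 and 2.33 ± 0.25 and 3.02 ± 0.14 at week 1 (adjusted p = 0.478 and 0.468). Csf3r and Mpo, a neutrophil growth factor receptor and a granule enzyme, were at 1.81 and 2.40 at week 9 and 1.75 and 2.61 at week 1, near the floor of the array.

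Antigen presentation split by class. MHC class II genes, which present peptides to helper T cells, rose in 8 of 14 members with a median of 1.14, and none fell. Cd74, the invariant chain, stood at 10.84, 9.28, 9.26, 10.54 and 10.32 at week 9, against 7.95, 7.77, 7.51, 7.90 and 8.08 at week 1, a change of 2.21 ± 0.38 (SE, adjusted p = 0.000263). H2-Ab1 and H2-Eb1, class II chains, changed by 1.96 ± 0.38 and 1.92 ± 0.35. Untreated kidneys averaged 8.75, 6.32 and 7.19 for Cd74, H2-Ab1 and H2-Eb1. The week 1 means were lower, at 7.84, 5.68 and 6.59, and the week 9 means higher, at 10.05, 7.65 and 8.51. Over the whole class II list, untreated kidneys lay 0.11 above week 1 in the median. Over the class I list the median of untreated minus week 1 was -1.05, so class I stood above untreated kidneys at week 1. Of its 14 members none rose and 2 fell from week 1 to week 9, with a median change of 0.01. The 2 were the nonclassical genes H2-T23 and H2-T10, at -0.91 ± 0.23 and -0.77 ± 0.24, and H2-T10 did not pass without week 9 replicates 1 or 2 or without week 1 replicates 2, 3, 4 or 5, each left out singly, nor without both week 1 arrays with adrenal signal, with the haemoglobin covariate or with a trended robust prior. The mean over the probe sets of H2-T23 did not pass.

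Receptors for antibody and complement, through which deposited immune complexes act on leukocytes, rose in part. Fcgr3 and Fcgr4, activating Fc receptors, changed by 1.91 ± 0.29 and 1.80 ± 0.30 (SE, adjusted p = 6.01e-05 and 0.000183), and Tyrobp, an adaptor of myeloid receptors, by 1.90 ± 0.26. In the Fc list 6 of 10 members rose and none fell (median 0.85), with 3 rising when the haemoglobin signal was a covariate. Fcgr2b, the inhibitory Fc receptor, changed by 0.07. In the complement list 6 of 19 rose and none fell (median 0.14). C1qb and C1qc, parts of the complex that binds antibody, changed by 1.42 ± 0.28 and 1.25 ± 0.26, and C5ar1, the receptor for the fragment C5a, by 1.40 ± 0.21. C5ar1 was even within groups, at 7.57, 6.82, 7.21, 7.27 and 6.94 at week 9 and 5.90, 5.74, 5.89, 5.71 and 5.57 at week 1.

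Leukocyte adhesion genes rose in 12 of 15 members, and in all 12 the groups did not overlap. Such separation upward held for 4.19% of all genes and for 75.5% of all genes called up. Among members that passed it is thus a description only. Cd44, the receptor for hyaluronan on leukocytes and on injured tubules, stood at 8.82, 7.11, 7.28, 8.16 and 8.59 at week 9, against 5.35, 4.41, 4.25, 5.91 and 4.64 at week 1. The change was 3.08 ± 0.34 (SE, adjusted p = 7.84e-07), and week 9 replicates 2 and 3 were lowest in their group. Ptprc, which encodes the common leukocyte antigen CD45, stood at 8.63, 7.60, 7.80, 8.20 and 8.47 against 6.25, 6.16, 6.13, 6.21 and 6.24. The week 1 kidneys were nearly equal in Ptprc, with an SD of 0.0545, and the change was 1.94 ± 0.21. Sele and Selp, the endothelial selectins, changed by 0.08 and 0.74 and did not pass.

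Chemokines rose in 10 of 26 list members and fell in 1, with a median of 0.47. Cxcl1, a chemokine for neutrophils and monocytes that tubules can make, stood at 7.41, 5.29, 6.41, 8.11 and 8.10 at week 9, against 3.51, 4.05, 3.30, 4.25 and 3.95 at week 1. The change was 3.25 ± 0.39 (SE, adjusted p = 2.97e-06). Cxcl2, its relative, changed by 1.70 ± 0.30, Ccl28, an epithelial chemokine, by 2.29 ± 0.43, and Ccl9, a myeloid chemokine, by 1.70 ± 0.27. The member that fell was Cxcl12, a stromal chemokine, by 0.98. Cxcl9 and Cxcl10, chemokines that interferon induces, changed by 0.30 and -0.09 and did not pass.

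Promoters of the chemokine genes that rose are shown because Cxcl1 and Cxcl2 carry a match to the kappa-B motif that NF-kB proteins bind (GGGA, any base, TTTCC, searched on both strands from 250 bases before to 50 after the start). Of the 9 such genes with a promoter in the RefSeq table (GRCm38.p6), 2 held a match, against 0.411% of 32851 promoters and 1.91% of the 209 matched promoters of genes called up. Capitals mark the match, which lies at positions -71 to -62 from the start of Cxcl1 (chr5:90891164-90891193, plus strand) and -97 to -88 from that of Cxcl2 (chr5:90903792-90903821, plus strand).
Cxcl1: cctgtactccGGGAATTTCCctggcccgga
Cxcl2: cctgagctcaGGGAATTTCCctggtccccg
The match is the same 10 letters in both. It is a description of the sequence and says nothing of binding in these kidneys.

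Cytokine genes rose in 10 of 25 members, with none falling and a median of 0.37. Il1rn, which encodes the antagonist of the interleukin-1 receptor, led at 6.02, 4.62, 5.79, 5.04 and 6.11 at week 9, against 2.81, 2.79, 2.28, 2.41 and 2.99 at week 1. Its change, 2.86 ± 0.32 (SE, adjusted p = 1e-06), stood beside 1.77 ± 0.29 for Il1b, which encodes interleukin-1 beta. Il33, an alarmin of stromal and epithelial cells, changed by 1.55 ± 0.32, and Csf2rb, a receptor chain for myeloid growth factors, by 1.63 ± 0.24. Tnf and Il10 changed by -0.16 and 0.37 and did not pass.

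Tubular injury genes rose in 23 of 29 members, and none fell. The median change was 1.23. Lcn2, an iron-binding protein released by injured tubules, stood at 8.84, 4.82, 5.90, 9.94 and 8.55 at week 9, against 3.43, 3.34, 3.56, 3.42 and 3.56 at week 1, a change of 4.14 ± 0.72 (SE, adjusted p = 0.000268). Havcr1, which encodes the injury marker KIM-1 of the proximal tubule, stood at 10.53, 8.46, 8.43, 9.94 and 10.29 against 7.14, 7.21, 7.35, 6.95 and 7.46. In both genes the groups did not overlap and week 9 replicates 2 and 3 were the lowest of their group. For Lcn2 the lowest and the highest week 9 kidney were further apart than replicate 2 was from week 1. Aldh1a2, a retinoic acid synthesis enzyme, and Cp, the copper carrier ceruloplasmin, changed by 1.99 ± 0.38 and 1.99 ± 0.33. Krt20, a keratin of the injured tubule, averaged 5.11 ± 1.47 and 3.56 ± 0.49, and it did not pass without week 9 replicate 1, week 9 replicate 4, week 1 replicate 4 or both week 1 arrays with adrenal signal, nor on the 10 arrays alone or with the haemoglobin covariate.

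The fibrinogen genes Fga and Fgg changed by 1.38 ± 0.31 and 1.82 ± 0.34, and Serpina3n, a protease inhibitor, by 1.24 ± 0.22. These and Cp were the 4 of 17 acute phase genes that rose (median 0.31). Saa1 and Saa3, serum amyloids, did not pass, though Saa1 was 3.03, 2.20, 2.29, 2.68 and 4.70 at week 9 and lay between 1.94 and 2.66 at week 1. Among the other leading rises were Ankrd1, a target of mechanical signalling, at 3.06 ± 0.43, Aoc1, a diamine oxidase, at 2.63 ± 0.41, and Mmp10, a matrix protease, at 2.49 ± 0.39.

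**Figure D2:**
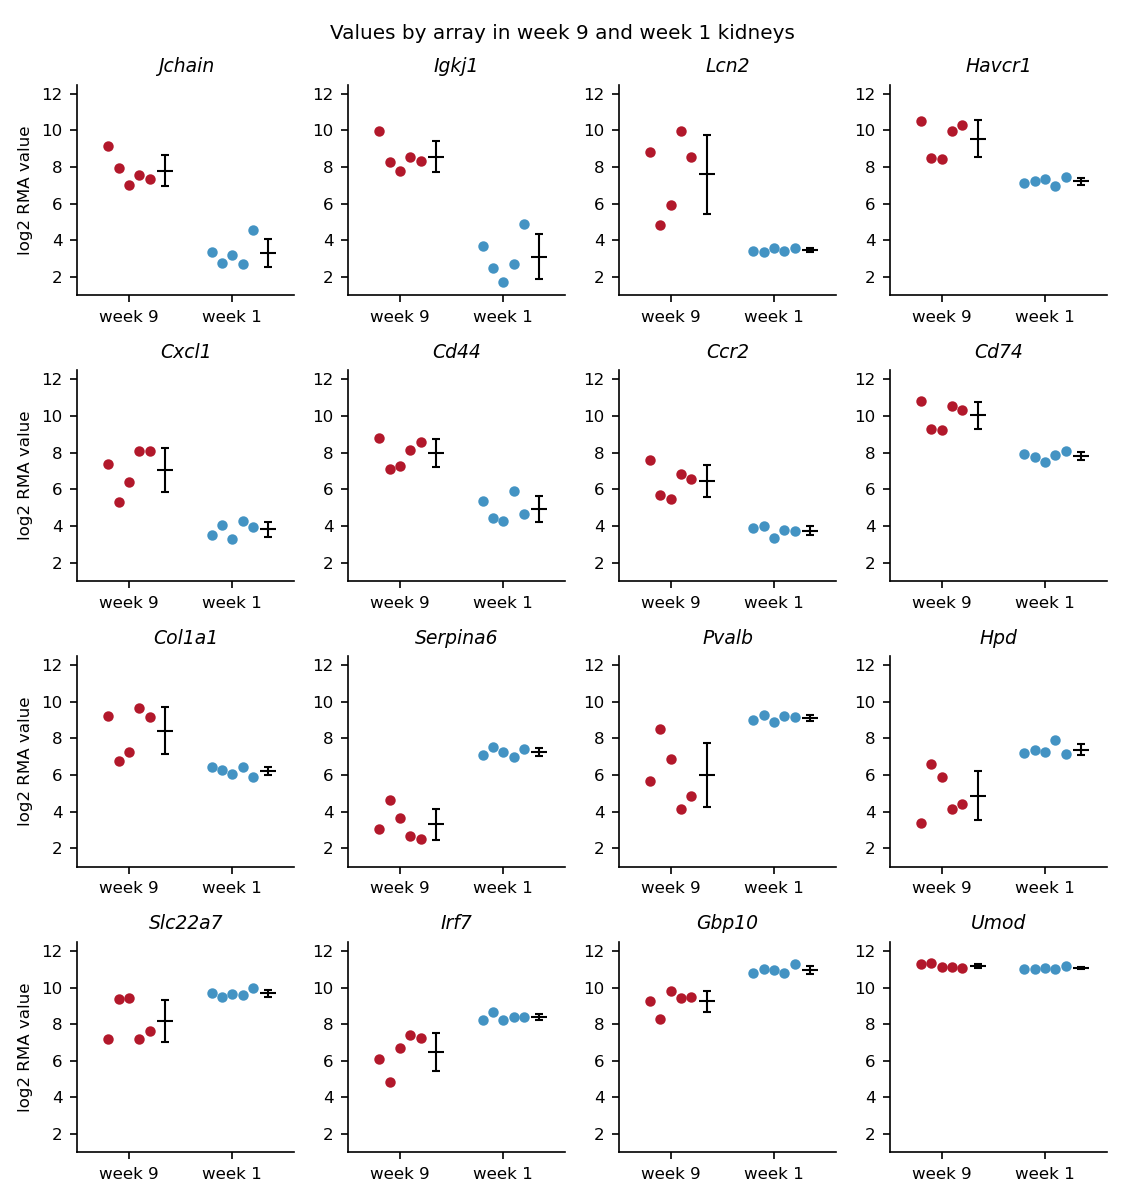
Log2 RMA values of 16 genes in each week 9 (red, left) and week 1 (blue, right) kidney, drawn from replicate 1 to 5, with the group mean and SD beside the points. Jchain, Igkj1 and Serpina6 show groups wide apart, Lcn2, Havcr1, Col1a1, Pvalb and Hpd a wide week 9 group, Slc22a7 week 9 kidneys that come near the week 1 group, and Umod overlapping groups.

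Matrix genes rose in 19 of 30 members and fell in 1, with a median of 0.86. Col1a1, a chain of the main scar collagen, stood at 9.20, 6.79, 7.28, 9.67 and 9.20 at week 9, against 6.47, 6.25, 6.06, 6.43 and 5.91 at week 1, a change of 2.21 ± 0.39 (SE, adjusted p = 0.000339). Col3a1, a fibrillar collagen, averaged 9.54 ± 1.04 at week 9 and 7.44 ± 0.211 at week 1 (SD). Fn1, fibronectin, changed by 2.07 ± 0.32 and Lox, which crosslinks collagen, by 2.22 ± 0.33. Replicate 2 was the lowest week 9 kidney for Col1a1, Col3a1 and Fn1, and replicate 3 for Lox. The member that fell was Col5a2, a minor fibrillar collagen, by 1.15. Proteases that remodel matrix rose in 9 of 18 members and none fell (median 0.53), but in 5 without week 9 replicate 1. Timp1, their inhibitor, averaged 4.93 ± 1.15 and 3.40 ± 0.28, and it did not pass without that replicate or without both week 1 arrays with adrenal signal.

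Of 19 genes of myofibroblasts and TGF-beta response 12 rose and none fell, with a median of 0.64. Vim, an intermediate filament of mesenchymal cells, changed by 1.86 ± 0.26, S100a4, a calcium-binding protein of fibroblasts and leukocytes, by 1.79 ± 0.26, and Ccn1, a matricellular protein, by 1.63 ± 0.26. Tgfbi, a matrix protein that TGF-beta induces, changed by 1.53 ± 0.27. The gene for TGF-beta1 itself, Tgfb1, changed by 0.16 and did not pass. Acta2, smooth muscle actin, changed by 0.96 ± 0.21, but the mean over its probe sets did not pass.

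Immediate early genes, which switch on within minutes of a stimulus, rose in 17 of 27 members and fell in 1 (median 0.96). Egr2, an early growth response factor, stood at 8.49, 6.60, 6.86, 7.79 and 8.56 at week 9, against 5.09, 5.22, 4.79, 5.36 and 4.76 at week 1 (change 2.62 ± 0.36 SE, adjusted p = 1.69e-05), with no overlap. Egr1, a zinc finger factor of the same family, was even at week 9, between 11.22 and 11.68, and uneven at week 1, between 8.98 and 11.02. It did not pass without week 1 replicate 3 or with the haemoglobin covariate. Untreated kidneys averaged 10.90 for Egr1, between the week 1 mean of 10.11 and the week 9 mean of 11.51. Over the whole immediate early list, untreated kidneys lay 0.22 above week 1 in the median. The member that fell was the receptor gene Nr4a3, and it did not pass without week 9 replicate 4 or week 1 replicate 4. Cell cycle genes rose in 15 of 37 members and none fell (median 0.41). Nusap1, Top2a and Birc5, genes of chromosome separation, changed by 1.92 ± 0.32, 1.88 ± 0.33 and 2.07 ± 0.40. Birc5 stood at 7.35, 5.00, 7.27, 7.30 and 7.61 at week 9, so that replicate 2 lay within the week 1 range of 4.31 to 5.25. The cell cycle count ranged from 6 without week 9 replicate 1 or 5 to 15, and was 9, 8 and 9 without week 1 replicates 1, 3 and 5, 7 without both week 1 arrays with adrenal signal and 9 with dim probe sets left out.

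**Figure D3:**
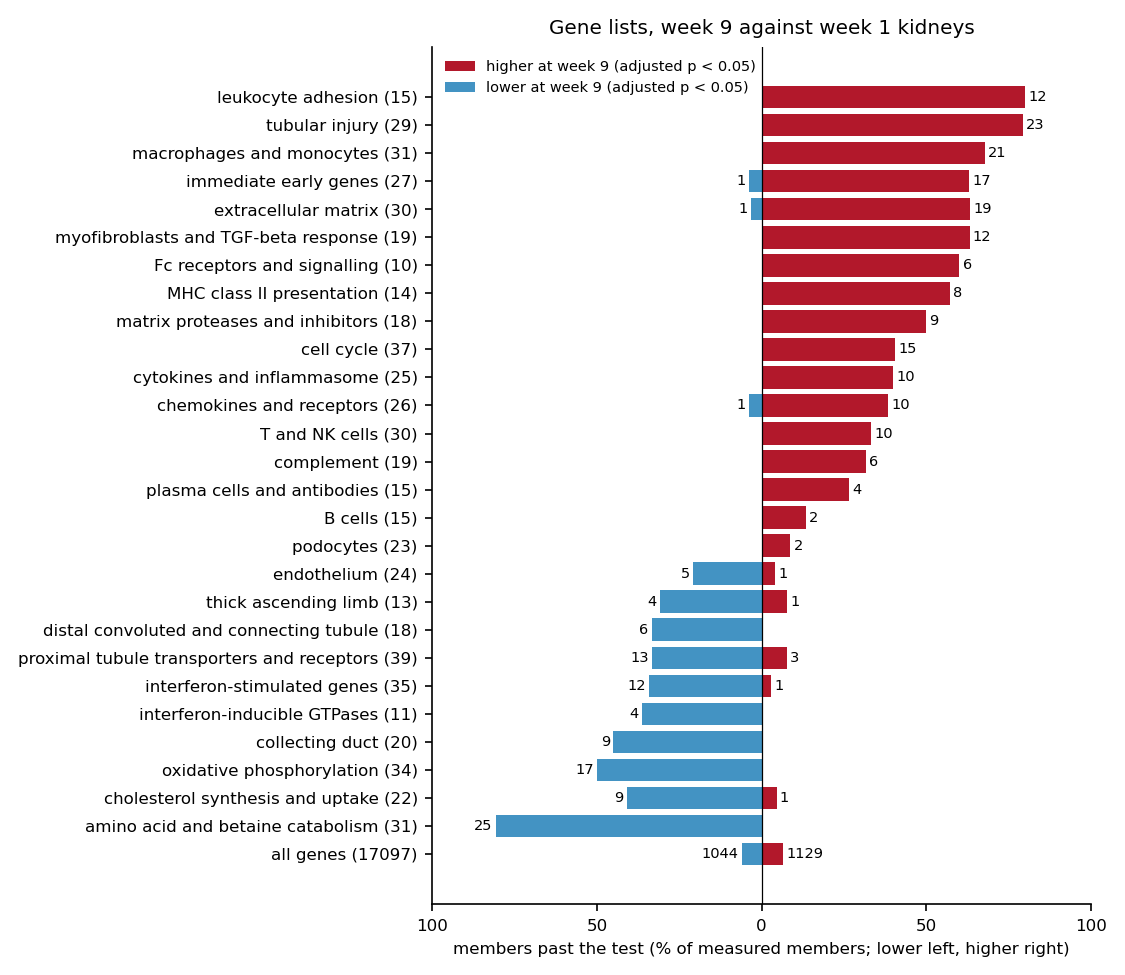
Share of the measured members of 27 gene lists, and of all genes, that were higher (red, to the right) or lower (blue, to the left) at week 9 than at week 1, in percent, with counts of members at the bars and the number measured after each name. Adhesion, tubular injury and macrophage lists reach furthest to the right and amino acid catabolism furthest to the left, against 6.6% and 6.11% of all genes.

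The largest fall was in Serpina6, which encodes the carrier of corticosteroids in plasma. It stood at 3.07, 4.65, 3.63, 2.69 and 2.52 at week 9, against 7.11, 7.55, 7.27, 6.96 and 7.44 at week 1, a change of -3.95 ± 0.39 (SE, adjusted p = 2.18e-07). No week 9 kidney came near the week 1 group, and the week 1 level was close to the untreated mean of 7.53. Apod, an apolipoprotein of stressed tissue, fell by 2.55, but here the untreated kidneys averaged 3.44, below both the week 9 mean of 4.44 ± 0.46 and the week 1 mean of 6.99 ± 0.31. Gpx6, a glutathione peroxidase, and Clec2h, a lectin, changed by -2.19 ± 0.30 and -1.98 ± 0.39.

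Enzymes that break down amino acids and betaine, a task of the proximal tubule, fell in 25 of 31 members, and none rose (median -0.71). Hpd, of tyrosine breakdown, stood at 3.36, 6.61, 5.88, 4.13 and 4.41 at week 9, against 7.22, 7.34, 7.27, 7.93 and 7.15 at week 1, a change of -2.51 ± 0.48 (SE, adjusted p = 0.000792). Bhmt, which uses betaine to remake methionine, stood at 3.75, 6.38, 6.53, 3.69 and 3.27 against 6.87, 7.13, 6.73, 7.65 and 6.79. Replicates 2 and 3 were the week 9 kidneys nearest to week 1 in both, and still below all week 1 kidneys. Kynu, of tryptophan breakdown, and Dmgdh, of the choline pathway, changed by -1.44 ± 0.27 and -1.12 ± 0.23.

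Transporters and receptors of the proximal tubule moved less evenly, with 13 of 39 falling and 3 rising (median -0.45). The count that fell was 20 without week 9 replicate 2, 20 without week 9 replicate 3 and 21 with the mean of all probe sets of a gene, and the count that rose was 0 without week 9 replicate 1 or 5 and 1 without week 9 replicate 4, week 1 replicate 3 or week 1 replicate 4. Slc22a7, an organic anion carrier, stood at 7.17, 9.36, 9.42, 7.19 and 7.63 at week 9, against 9.71, 9.49, 9.64, 9.60 and 9.98 at week 1, with replicates 2 and 3 just below the week 1 range. Slc13a3, a carrier of citrate and succinate, and Slc34a3, a phosphate carrier, changed by -1.19 ± 0.28 and -1.13 ± 0.23. Slc22a27 and Slc16a14, also solute carriers, changed by -2.13 ± 0.41 and -1.73 ± 0.37. The sodium and glucose carrier genes differed, as Slc5a2, of the early proximal tubule, fell by 0.90, while Slc5a1, of the late part, changed by 0.13 and did not pass.

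Drug-metabolizing enzymes fell in 9 of 32 members and rose in 3 (median -0.28), with Cyp2d26, a cytochrome P450, at -1.88 ± 0.46 and Cyp2e1, which oxidizes small solvents, at -1.22 ± 0.24. Cyp24a1, which breaks down vitamin D, went the other way, at 1.32 ± 0.29, but did not pass with the haemoglobin covariate. The count that rose was 1 without week 9 replicate 1, 4 or 5 and 5 without week 9 replicate 2. Ugt2b37, a glucuronosyltransferase, had the widest week 9 group of the called genes, at 6.45, 2.95, 4.16, 8.19 and 7.57 against 3.23, 3.31, 3.54, 3.50 and 3.87 at week 1, and it did not pass without week 9 replicate 4 or 5 or both week 1 arrays with adrenal signal, nor on the 10 arrays alone. Respiratory chain genes fell in 17 of 34 members by small amounts, and none rose (median -0.32). Sdhb, of complex II, changed by -0.74 ± 0.16 and Atp5g1, of the ATP synthase, by -0.62 ± 0.12. That count was 7 without week 9 replicate 1, 9 without week 9 replicate 4, 11 without week 1 replicate 5 and 8 without both week 1 arrays with adrenal signal. Dnase1, which digests extracellular DNA and whose loss gives lupus in mice, stood at 8.39, 11.39, 10.29, 7.70 and 7.31 at week 9, against 11.34, 11.49, 11.34, 11.42 and 11.50 at week 1, a change of -2.40 ± 0.60 (SE, adjusted p = 0.00809). Replicate 2 lay within the week 1 range.

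Beyond the proximal tubule, genes of the distal nephron and collecting duct also fell. Pvalb, a calcium buffer of the early distal convoluted tubule, stood at 5.65, 8.50, 6.90, 4.14 and 4.85 at week 9, against 9.02, 9.27, 8.88, 9.23 and 9.17 at week 1, a change of -3.10 ± 0.55 (SE, adjusted p = 0.000322). Slc12a3, the thiazide-sensitive salt carrier of that segment, changed by -0.88 ± 0.17, and Calb1 and S100g, the calbindins of the distal nephron, by -1.17 ± 0.20 and -0.89 ± 0.14. In the distal list 6 of 18 fell and none rose (median -0.28). In the collecting duct list 9 of 20 fell and none rose (median -0.31), with 5 falling without week 9 replicate 4 and 5 without both week 1 arrays with adrenal signal. Rhcg, an ammonia channel, fell by 1.01 and Aqp3, a basolateral water channel, by 0.59, whereas Aqp2, the vasopressin-regulated water channel, averaged 4.63 ± 0.17 at week 9 and 4.49 ± 0.40 at week 1 and did not pass. In the thick limb list 4 of 13 fell and 1 rose (median -0.22), with Ptger3, a prostaglandin receptor, at -0.96 ± 0.19. The member that rose, the claudin Cldn16, passed among the single omissions only without week 1 replicate 5 or week 9 replicate 2. Slc5a3, the inositol carrier of the concentrating medulla, fell by 1.01.

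Podocyte and vessel genes changed little. Of 23 podocyte members 2 rose and none fell (median 0.03), with 0 rising without week 9 replicate 1 and 1 without week 9 replicate 5, week 1 replicate 3 or week 1 replicate 4. The counts for endothelium were 5 falling and 1 rising of 24 (median -0.08), with 3 falling without week 9 replicate 3, week 1 replicate 2 or week 1 replicate 5. Flt1, a receptor for vascular growth factor, was the clearest, at 6.96, 7.06, 6.60, 7.16 and 7.22 at week 9 against 7.99, 7.81, 8.01, 7.91 and 7.90 at week 1, a change of -0.93 ± 0.14 (SE, adjusted p = 3.7e-05). Genes of cholesterol synthesis and uptake fell in 9 of 22 members and rose in 1 (median -0.51). Idi1, of the mevalonate pathway, changed by -1.33 ± 0.23. The count was 4 without both week 1 arrays with adrenal signal, 5 without week 1 replicate 3, 5 without week 9 replicate 1 and 4 without week 9 replicate 4. The globin genes Hba-a1 and Hbb-b2, whose mean is the haemoglobin signal, rose by 3.40 ± 0.54 and 2.67 ± 0.62. With that signal as a covariate Hbb-b2 changed by -0.60, which says nothing of the gene, since the signal is built from it.

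Interferon-stimulated genes fell in 12 of 35 members and rose in 1, with a median of -0.52. At week 9 the means of the members named here were still above those of untreated kidneys. Irf7, the factor that amplifies the interferon response, stood at 6.09, 4.85, 6.69, 7.40 and 7.26 at week 9, against 8.23, 8.64, 8.23, 8.41 and 8.39 at week 1 and a mean of 4.02 in 3 untreated kidneys. The change was -1.92 ± 0.34 (SE, adjusted p = 0.000381). Ifit1 and Ifit3, which bind foreign RNA or its partners, changed by -1.74 ± 0.36 and -1.54 ± 0.26. Ifit3 averaged 10.39 ± 0.597 against 11.93 ± 0.199 (SD), with an untreated mean of 8.70. Week 9 replicate 2 was the lowest for all 3 genes, and the groups did not overlap. For Irf7 and Ifit1 that was part of the rule that named them. Of the 35 members, 9 had all week 9 arrays below all week 1 arrays. Over the whole list, untreated kidneys lay 2.33 below week 1 in the median. Untreated arrays also had a lower beta-actin 3′/5′ ratio, at 1.57 ± 0.158 (SD, n = 3), and the part of that in these levels was not tested.

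The interferon-inducible GTPases, which attack vacuoles of pathogens, fell in 4 of 11 members and rose in none (median -0.69). Gbp10 stood at 9.27, 8.31, 9.80, 9.40 and 9.50 at week 9, against 10.78, 11.02, 10.95, 10.80 and 11.29 at week 1, a change of -1.71 ± 0.34 (SE, adjusted p = 0.00119), and the untreated mean was 6.57. Members of both lists differed in how far they moved, since Oas2, Oas3, Trim30a and Gbp2 changed by -0.15, -0.02, -0.20 and 0.28 and did not pass. Slfn1, a lymphocyte gene of the interferon list, was the member that rose, by 1.02, and it did not pass without week 9 replicate 1, week 9 replicate 4 or week 1 replicate 2. The number that fell depended on single arrays. It was 7 of 35 interferon-stimulated genes and 2 of 11 GTPases without week 9 replicate 2, 7 and 2 without both week 1 arrays with adrenal signal, and 5 and 2 with the haemoglobin signal as a covariate, a fit in which Ifit1 and Usp18 did not pass. Among the sensors of nucleic acids, Ifih1, for long RNA, fell by 0.94 but did not pass with the haemoglobin covariate, while Cgas, for DNA, and Sting1, its adaptor, changed by 0.51 ± 0.12 and 0.87 ± 0.19 in the other direction.

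Interferon-activated factors recognise a short sequence with a repeated core, and 5 promoters that hold this core are shown to let its spacing be read. The core searched was GAAA, any 2 bases, GAAA on either strand, which on the opposite strand reads TTTC, any 2 bases, TTTC. It was found in 5 of the 10 interferon-stimulated genes that fell and were matched to a RefSeq promoter, and in 2 of 2 such GTPases, against 3.44% of all 32851 promoters. Genes called up and down held it in 6.22% of 209 and 7.41% of 81 matched promoters. Both lists were made of genes that interferon induces, and members that did not pass were not counted. The shares therefore say nothing of the fall. Each set was limited to genes with 1 promoter in the table, unlike the 32851 promoters. Capitals mark the matches, sequences run 5′ to 3′ on the strand of the gene, and the build is GRCm38.p6.
Ifit1: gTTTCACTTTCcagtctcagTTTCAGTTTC
Ifit3: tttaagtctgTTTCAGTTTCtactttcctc
Rsad2: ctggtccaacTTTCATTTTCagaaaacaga
Igtp: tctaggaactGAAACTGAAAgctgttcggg
Irgm1: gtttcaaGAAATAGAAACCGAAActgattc
Ifit1 (chr19:34640784-34640813, plus strand) holds 2 matches, within positions -104 to -76 from its start. The match shown for Ifit3 (chr19:34583397-34583426, plus strand) lies at -122 to -113, and that of Rsad2 (chr12:26456553-26456582, minus strand) at -120 to -111. The matches lie at -34 to -25 for Igtp (chr11:58199512-58199541, plus strand) and at -30 to -15 for Irgm1 (chr11:48871428-48871457, minus strand), where 2 matches overlap. Oas1g and Stat2, also with a match, are not shown, and in Oas1g 2 matches lie at -18 to -3. Rsad2, the antiviral enzyme viperin, changed by -0.71 ± 0.18 at a high level, 10.27 at week 9 and 10.98 at week 1, Igtp by -1.18 ± 0.31 and Irgm1 by -0.95 ± 0.26, which did not pass without week 9 replicate 2 or with the haemoglobin covariate. Without both week 1 arrays with adrenal signal neither Igtp nor Irgm1 passed. A match is not evidence of binding. NF-kB matches were found in none of the 10 interferon-stimulated promoters, and matches to the longer HNF1 motif in 0.0609% of all promoters and in 1 of 19 amino acid enzymes that fell.

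The week 9 kidneys did not hold 1 order for all gene groups. Averaged over the members of a list and set to the week 1 mean, the tubular injury genes lay 1.67, 0.37, 0.62, 1.83 and 1.62 higher in week 9 replicates 1 to 5, and the matrix genes 1.16, 0.14, 0.34, 1.16 and 1.29. Replicates 2 and 3 were thus low in both. Amino acid catabolism ran opposite, at -1.34, -0.31, -0.39, -1.04 and -0.97. Interferon-stimulated genes did not follow this split, at -0.69, -1.51, -0.64, -0.14 and -0.15, so that replicate 2 had the lowest level of both the injury and the interferon list. The 5 week 1 kidneys lay between -0.12 and 0.08 for the interferon genes and between -0.12 and 0.06 for the injury genes. In the adhesion list every week 9 kidney was at least 0.93 above the week 1 mean.

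**Figure D4:**
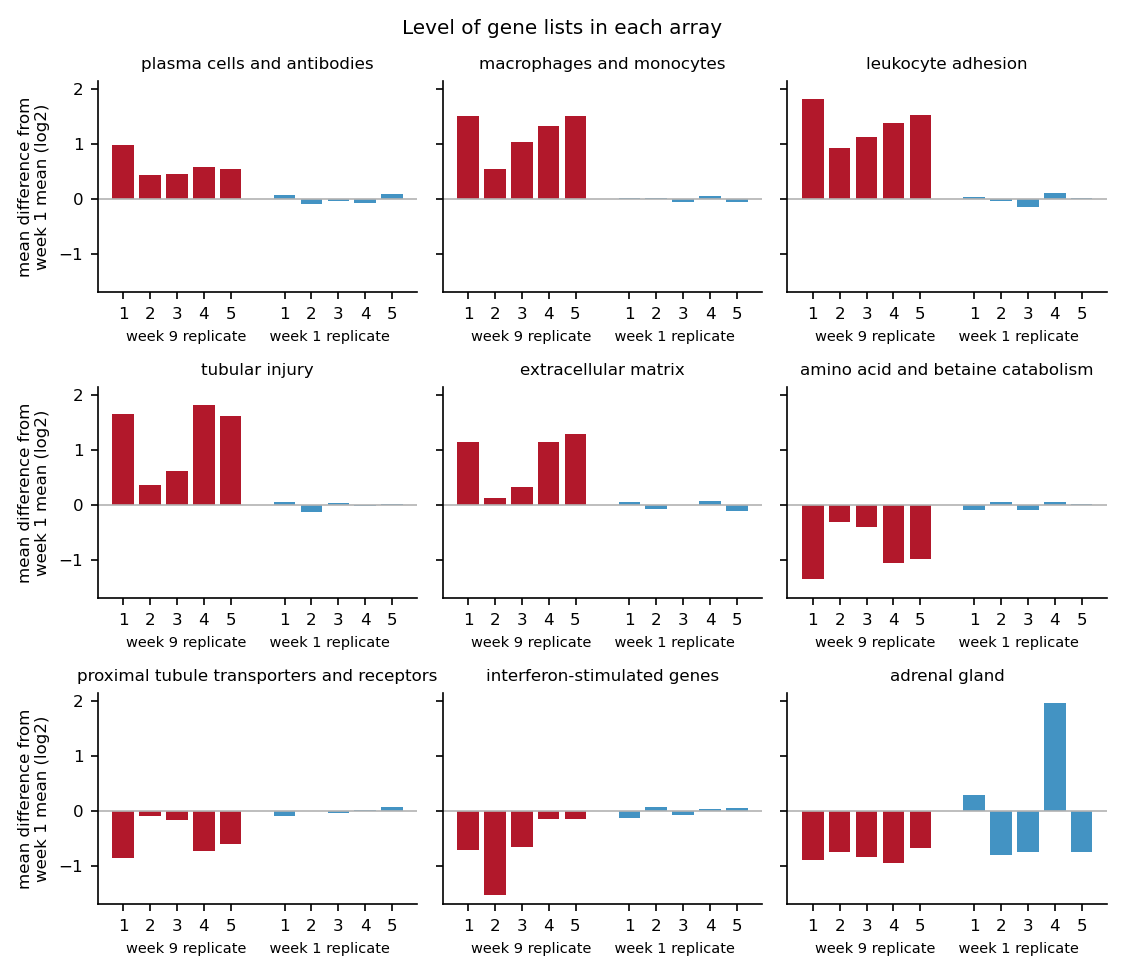
Mean difference of the members of 9 gene lists from their week 1 mean (vertical axis, log2) in week 9 replicates 1 to 5 (red) and week 1 replicates 1 to 5 (blue). Week 9 replicates 2 and 3 have the shortest bars for injury, matrix, amino acid and proximal tubule lists, replicate 2 is lowest for interferon genes, and the adrenal list stands out in week 1 replicate 4.

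The other weeks show when these levels were reached, as a description without a test. Lcn2 averaged 3.97 in untreated kidneys and 3.46, 3.68, 3.69, 4.13, 8.30 and 7.61 at weeks 1, 2, 3, 5, 7 and 9, and Havcr1 6.88 and then 7.22, 7.24, 7.28, 7.16, 9.70 and 9.53. Both were thus near their early level at week 5 and at their late level at week 7. Fpr2 came earlier, at 3.01 in untreated kidneys and 3.58, 3.44, 5.02, 6.77, 6.58 and 6.82 over the weeks, as did Ptprc, at 5.84 in untreated kidneys, 6.20 at week 1, 7.75 at week 5 and 8.14 at week 9. Jchain still differed between the last weeks, at 3.99 and then 3.31, 4.19, 4.44, 5.37, 6.52 and 7.80. Serpina6 had a stepwise course, at 7.53 and then 7.27, 6.08, 6.55, 5.27, 3.58 and 3.31, while Pvalb was at 8.84 and then 9.11, 8.94, 9.07, 8.56, 5.78 and 6.01. Irf7 was highest at week 1, with means of 8.38, 7.11, 7.40, 6.54, 7.39 and 6.46 over the weeks.

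**Figure D5:**
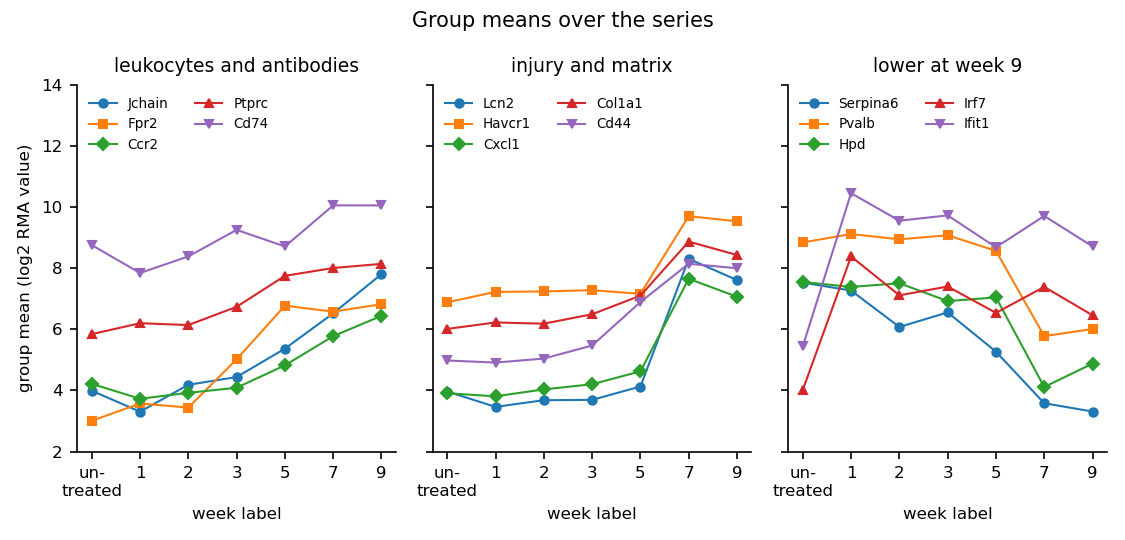
Group means (vertical axis, log2 RMA value) of 15 genes in untreated kidneys (n = 3) and at weeks 1, 2, 3, 5, 7 and 9 (n = 5 each, horizontal axis, not to scale). Fpr2 and Ptprc are high by week 5, Lcn2, Havcr1 and Cxcl1 by week 7, and Irf7 and Ifit1 peak at week 1.

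Of 17 circadian clock genes 6 fell and 1 rose, among them Hlf, a clock output factor, by 1.05 and Per2, a core repressor, by 0.97. The number that fell was 3 without week 9 replicate 1. Of 23 genes of stress and the unfolded protein response 3 rose and 2 fell (median -0.19), against 6.6% and 6.11% of all genes. Of 26 antioxidant genes 1 rose and 3 fell, and the count that fell was 0 without week 9 replicate 1, 6 and 5 without week 9 replicates 2 and 3 and 1 without week 1 replicate 4. Herpud1, of protein quality control in the endoplasmic reticulum, fell by 0.92. Pdk4, which turns cells from glucose to fat use, rose by 0.90, and Gpd1, a glycerol phosphate enzyme that fat cells also express, fell by 1.11. Gpd1 was highest in week 1 replicates 4 and 1, the week 1 arrays with high fat and adrenal signal. In the other week 1 arrays it was between 9.36 and 9.46, and at week 9 between 8.04 and 8.97. The part of fat in its fall was not tested.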

How the data were processed

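Total RNA of 33 kidneys was measured on 1-colour Affymetrix HT-MG-430 PM arrays after NuGEN Ovation labelling. Deposited values are log2 signals, which the authors normalized by RMA. The submitters' processing notes also name Partek, without versions. RMA makes the probe distributions of the arrays equal, so a general shift in RNA would not show. The log base was taken from the range of the values, 0.585 to 13.9. Precision is limited by the number of arrays.

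Of 45141 probe sets, 104 controls were left out. The platform annotation paired 28898 of the 45037 tested with 1 gene symbol, 551 with several and 15588 with none, and each of 17097 genes was read from its brightest probe set by mean signal. Probe sets of immunoglobulin segments and other close families can bind related transcripts. A genome build for the arrays is not given in the sources used here; promoters are from RefSeq (GRCm38.p6), matched by symbol.

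A limma 3.58.1 model (R 4.3.3) with 7 group means over all 33 arrays gave week 9 minus week 1, with 26 residual degrees of freedom and Benjamini-Hochberg adjustment over all 45037 probe sets. It was tested on simulated data with the same spread in all groups, which does not check it under the wider week 9 spread. Replicates are separate mice per the series design. RNA measures were compared by exact permutation with SciPy 1.17.1. The 46 gene lists (945 of 1093 entries measured, some shared) are described by counts and medians, and members not measured are not analysed here. The comparison, the lists and the rule for named genes were chosen with earlier results of these data known.

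The rule named the 15 largest rises and 15 largest falls among called genes whose groups did not overlap, up to 4 members per list by size of change among those that passed, genes the study's text names, the 6 called genes with the largest week 9 SD, kidney markers and the 4 brightest interferon-stimulated genes at week 1. Genes named as not passing, and Hsd3b1, Cxcl12, Col5a2, Slc5a2, Slfn1, Nr4a3, Cldn16, Oas1g and Stat2, were chosen after their values were seen. Alternatives were the 10 arrays alone, array weights, a trended robust prior, other scalings, covariates for RNA ratio and haemoglobin, no fold threshold, a filter on dim probe sets, the mean over probe sets, a replicate block and leaving out each array. Leaving out both week 1 arrays with adrenal signal was added after seeing the data.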

Additional observations from a re-analysis of the deposited data

Results flagged for a closer look

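In groups of 5 arrays, a single array lay apart from its other 4, with a gap of more than 0.71 of the range, in 22 of 472 groups looked at, where chance gives about 1 in 20. The number is no more than chance gives, so the arrays below are listed as a description. Values are log2 and no explanation was tested.

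Week 9 replicate 2 was the lowest of its group for Birc5 (5.00, others 7.27 to 7.61), Prc1 (5.10, others 6.75 to 7.31), S100a4 (5.51, others 6.80 to 7.18), Cebpd (5.07, others 6.14 to 6.54) and the mean level of the neutrophil list (0.00374 above the week 1 mean, others 0.287 to 0.356). It was the highest for Slc4a1 (6.98, others 5.33 to 5.81), an anion exchanger of collecting duct and red cells. The neutrophil list includes Lcn2, its only member that rose. Week 9 replicate 1 was the highest for Pou2af1 (5.62, others 3.76 to 4.07) and for the mean level of the plasma cell list (0.996, others 0.444 to 0.584). Week 9 replicate 3 was the highest for S100a9 (4.35, others 2.86 to 3.29) and for the beta-actin 3′/5′ ratio (2.19, others 1.95 to 2.01). Week 9 replicate 4 was the lowest for Il1b (5.49, others 6.88 to 7.39), though it was among the high arrays for Lcn2 and Havcr1.

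Week 1 replicate 4, which carried the highest adrenal signal, was the lowest of its group for the beta-actin 3′/5′ ratio (1.68, others 1.99 to 2.03), Aqp4 (9.40, others 9.81 to 9.91) and Atf3 (4.37, others 4.89 to 4.99), and the highest for Nr4a1 (4.68, others 2.94 to 3.38), Hpd (7.93, others 7.15 to 7.34) and Cyp2e1 (9.09, others 8.33 to 8.53). Week 1 replicate 3 was the lowest for Cxcl13 (3.73, others 3.99 to 4.06) and Cxcl2 (2.09, others 2.61 to 2.77) and the highest for Tnfrsf13c (4.45, others 4.23 to 4.29). Replicate 1 was the lowest for Cp (6.44, others 7.00 to 7.09), and replicate 5 the highest for the mean level of the thick limb list (0.144, others -0.05 to -0.02).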

How the results depend on the processing

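The count of probe sets called up was 450 to 787 under the alternatives that kept the 2-fold threshold, against 567, and 443 to 753 when arrays were left out in turn. The count of probe sets called down, 184, became 499 with the haemoglobin signal as a covariate and 124 to 289 when arrays were left out in turn, with the highest count without week 9 replicate 2. With no fold threshold, 2091 rose and 2089 fell. Without both week 1 arrays with adrenal signal, 584 were called up and 197 down. Genes whose groups lay apart numbered 716 above and 879 below.

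Replicate numbers did not pair the arrays. The deviations of same-numbered week 9 and week 1 arrays correlated between -0.0304 and 0.056, and with the replicate block there were 568 probe sets called up and 183 probe sets called down. Of the 187 genes the rule named, 174 passed and 125 of these passed in the same direction under each of 21 alternatives that measured them. The haemoglobin covariate left 25 of them not passing and reversed the sign of 2 more. The 10 arrays alone left 20 not passing, leaving out both adrenal arrays 26, and leaving out week 9 replicate 1 27. With the haemoglobin covariate Alas2 changed by -0.10 and Hbb-b2 by -0.60, against rises without it. For Hbb-b2 this says nothing of the gene, since the covariate is built from Hba-a1 and Hbb-b2. For Alas2 the cause was not tested. The difference in haemoglobin signal ranged from 2.80 to 3.23, that in the beta-actin ratio from 0.00652 to 0.0939 and that in the Gapdh ratio from -0.03 to 0.0167 when arrays were left out.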
